A study of Homo sapiens with 6 samples.

Results

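The 9 genes described here encode 7 enzymes of heme synthesis, in pathway order ALAS1, ALAD, UROS, UROD, CPOX, PPOX and FECH, and the heme oxygenases HMOX1 and HMOX2. They were taken by symbol from a table of 59251 genes, and all 9 were among the 14808 that passed the low-count filter. The enzyme between ALAD and UROS was not among the members and is not described here. Total RNA came from HCT116, a human colorectal carcinoma line, and was sequenced in 6 libraries. The 3 WT libraries were of unedited cells, and the 3 MUT libraries of cells edited by CRISPR/Cas9 to carry the N106S substitution in eIF6 on both alleles. eIF6 binds the large ribosomal subunit and blocks its union with the small subunit, and the study asks how targeting it affects ribosome pools and cell division. No treatment, age or time point separates the groups, and the labels do not say how many clones or cultures the replicates came from, so every p-value measures the spread between these libraries only. In bulk RNA, fewer cells of a type and less RNA per cell cannot be told apart.

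Heme is an iron-bearing ring that serves as the prosthetic group of cytochromes, catalase and other proteins. Its synthesis starts in mitochondria, where ALAS1 joins glycine to succinyl-CoA in the rate-limiting step, passes through the cytosol (ALAD, UROS and UROD) and ends in mitochondria (CPOX, PPOX and FECH). Heme itself lowers ALAS1 at the level of transcription, mRNA stability, import and protein turnover. The heme oxygenases open the ring to biliverdin, iron and carbon monoxide. HMOX1 is the inducible form, held down by the repressor BACH1 and raised by NRF2, and HMOX2 is the constitutive form.

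ALAS1 was chosen by its log2 fold change, MUT against WT, in earlier results of these same libraries. Its values in the MUT against WT contrast are therefore a description and carry no test. The other 8 members were listed for their place in the pathway, with those results known. Over all genes, edgeR's quasi-likelihood test called 283 of 14808 at an adjusted p below 0.05, which is 1.91%, with 0.986% higher and 0.925% lower in MUT. ALAS1 was the 1 member called, and nothing is read from that count.

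Total counts were between 53986494 and 87656970 per library, and between 10252501 and 21984081 without the abundant 7SL, 7SK, RPPH1 and RMRP RNAs. The 9 members together held 3053 to 8830 counts. MUT replicate 2 stood apart in composition. Outside those abundant RNAs it held 21984081 of its 58935201 counts, and its TMM scaling factor was 1.68, against 0.676 to 1.11 elsewhere. Its ribosomal RNA rows took 3.91% of all counts, against 1.16% in WT replicate 1 and at most 0.234% in the other 4 libraries. EIF6 itself was measured at 43.3 to 47.9 CPM in WT and 30.7 to 36.7 CPM in MUT (log2 fold change -0.43, SE 0.12, edgeR adjusted p = 0.110). That level does not check the genotype, since the edit changes a codon. The 11 markers of colon epithelium summed to 54.3 to 94.8 TPM in WT and 86.6 to 162 TPM in MUT, and 4 reached at least 1 TPM in every library. These were EPCAM, KRT8, KRT18 and KRT19, while CEACAM5 was listed at 0 throughout and KRT20, VIL1, CDX1 and LGALS4 did not pass the filter. Of 12 erythroid markers, 0 reached 1 TPM in every library and 5 had 0 counts in all, with a sum of 2.06 to 3.66 TPM in WT and 1.58 to 3.46 TPM in MUT. Of 12 markers of immune, endothelial, stromal and liver cells 0 reached it, with sums of 0.13 to 0.26 TPM in WT and 0.30 to 0.63 TPM in MUT, and their part in the results was not tested. These sums are in TPM, without TMM scaling, so a higher sum alone does not show a rise beyond that of other genes. The sums of the immune, endothelial, stromal and liver markers did not overlap between groups, at under 1 TPM in every library. On a log2(TPM + 1) scale the median gene tested was itself 0.36 higher in MUT. With TMM scaling, 0 of 6 colon, 0 of 4 erythroid and 0 of 3 other markers tested were called. In that order, the middle log2 values of MUT against WT were -0.03, -0.53 and 0.70, against -0.01 for all tested genes. They ranged from -1.23 to 0.32 for colon, from -2.78 to -0.001 for erythroid and from 0.41 to 0.71 for the other markers. The groups did not overlap for 3 of the 6 colon markers (1 higher and 2 lower in MUT), 1 of the 4 erythroid and 1 of the 3 others. The share of all tested genes was 26.1%. ALAS2, the erythroid form of the first enzyme, had 0 counts in all 6 libraries.

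The ALAS1 promoter window is shown because ALAS1 had the highest log2 fold change of the 9 genes, and that of CPOX because it had the lowest. Windows of 300 bases, from 250 before to 50 after the annotated start, were taken from RefSeq (GRCh38.p14). They were present for 7 of the 9 members, all but UROS and HMOX1. The capitals mark exact matches, on either strand, to 5 motifs: the NRF1 motif, the GC box (GGGCGG), the CRE (TGACGTCA), the core of the antioxidant response element (TGANNNNGC) and the TATA box (TATAAA). ALAS1 lies on chromosome 3, and its window is chr3:52197833-52198132 on the plus strand. The CPOX window is chr3:98593562-98593861 on the minus strand of the same chromosome.
ALAS1: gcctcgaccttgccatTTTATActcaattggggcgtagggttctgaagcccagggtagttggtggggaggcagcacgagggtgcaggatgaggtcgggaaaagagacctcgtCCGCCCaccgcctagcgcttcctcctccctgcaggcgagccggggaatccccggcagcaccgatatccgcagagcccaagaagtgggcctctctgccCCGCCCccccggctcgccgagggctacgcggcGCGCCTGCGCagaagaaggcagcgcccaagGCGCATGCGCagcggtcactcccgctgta
CPOX: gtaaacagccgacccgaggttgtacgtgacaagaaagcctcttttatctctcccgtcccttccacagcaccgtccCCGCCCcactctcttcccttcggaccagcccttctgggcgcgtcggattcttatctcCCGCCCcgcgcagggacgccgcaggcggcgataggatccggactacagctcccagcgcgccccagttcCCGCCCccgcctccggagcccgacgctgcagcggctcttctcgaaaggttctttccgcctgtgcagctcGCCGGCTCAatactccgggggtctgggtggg

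The ALAS1 window held NRF1 matches at 2 places, from -9 to 1 and from 22 to 31 relative to the start, where 1 is the first transcribed base. NRF1 is an activator of genes for mitochondrial proteins and is known to act on ALAS1. Of all 35116 windows in the table, 5.78% held such a match, and none of the windows of the other 6 members with an entry did. The GC box letters stood at -138 and -41 in ALAS1 and at -175, -118 and -50 in CPOX, a motif present in 44.95% of all windows. The CPOX window also had the antioxidant response core at 20 to 28, as did 41.8% of all windows, and the ALAS1 window had none. Windows of UROD, PPOX and FECH held this core too, and HMOX1 had no window to scan. The TATA letters at -234 in ALAS1 were far upstream of the start and occurred in 11.5% of all windows. Neither window held the CRE letters, which 1.85% of all windows did. These matches describe letters only, and binding was not measured.

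In MUT cells the mRNA of ALAS1 was 2.32 times as abundant as in WT cells, while none of the 6 later enzymes listed passed the test over all genes. The gene spans 52198083 to 52214327 on chromosome 3 (GRCh38, as are all positions here). ALAS1 stood at 6.73, 8.44 and 7.22 CPM in WT and at 16.5, 19.7 and 15.8 CPM in MUT. Every MUT library lay above every WT library, and the lowest MUT value was 15.8 CPM against a highest WT value of 8.44 CPM. The means were 7.47 ± 0.881 CPM and 17.3 ± 2.05 CPM (SD, n = 3 each), a log2 fold change of 1.21 (SE 0.14), which ranked 190 from the top among the 14808 genes. CPM values are expected counts divided by the TMM-scaled library size and set to a common total. Without MUT replicate 2 the log2 fold change was 1.13, and without both libraries high in ribosomal RNA it was 1.06.

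ALAD (chromosome 9, 113386312 to 113401284), which condenses aminolevulinate into porphobilinogen, was the least abundant member, with 61 to 108 counts per library. It was at 1.25, 1.04 and 1.41 CPM in WT and at 1.17, 1.11 and 1.31 CPM in MUT, and the groups overlapped. UROS (chromosome 10, 125784980 to 125823258), which closes the ring, was at 15.1, 19.2 and 16.7 CPM in WT and at 17.0, 20.2 and 17.0 CPM in MUT, again with overlap. UROD (chromosome 1, 45012254 to 45015575), which removes carboxyl groups from the ring's side chains, was at 9.80, 11.05 and 11.04 CPM in WT and at 10.05, 12.2 and 9.10 CPM in MUT, where MUT held both the highest and the lowest value. None of these 3 cytosolic enzymes passed the test over all genes. Their log2 fold changes were -0.04 (ALAD, edgeR adjusted p = 0.942), 0.09 (UROS, 0.790) and -0.02 (UROD, 0.950). The 95% intervals of the ratio of MUT to WT ran from 0.717 to 1.32 for ALAD, from 0.858 to 1.31 for UROS and from 0.795 to 1.22 for UROD. Each interval includes differences in either direction that these libraries could not resolve. The interval of ALAS1, given as a description, was 1.86 to 2.89.

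The later mitochondrial enzymes gave 1 gene whose groups did not overlap, CPOX, and a pair that overlapped. CPOX (chromosome 3, 98570488 to 98593611), which oxidises coproporphyrinogen in the space between the mitochondrial membranes, was at 16.9, 16.3 and 16.5 CPM in WT and at 10.9, 15.4 and 13.04 CPM in MUT. All 3 MUT libraries lay below the WT libraries, with MUT replicate 2 nearest to them. Its log2 fold change of -0.33 (SE 0.14) did not pass the test (edgeR adjusted p = 0.236, 0.0798 without MUT replicate 2, where the value was -0.45). The 95% interval of its ratio of MUT to WT, not adjusted over genes, ran from 0.635 to 0.991. With library size as the sole correction the log2 fold change of CPOX turned to 0.27, below the 0.54 of the median gene. CPOX shares 163 of its 2821 annotated exonic bases (GENCODE 29) with AC021660.3 on the same strand, and how reads in shared bases were divided was not tested. PPOX (chromosome 1, 161165728 to 161178013), which makes protoporphyrin, was at 2.03, 2.18 and 1.80 CPM in WT and at 2.22, 1.48 and 2.08 CPM in MUT, where MUT replicate 2 was the lowest of the 6 libraries. FECH (chromosome 18, 57544377 to 57586702), which inserts iron and carries an iron-sulfur cluster, was at 3.77, 3.94 and 3.40 CPM in WT and at 3.70, 4.12 and 3.52 CPM in MUT and overlapped throughout. Their log2 fold changes were -0.07 (PPOX, edgeR adjusted p = 0.896) and 0.03 (FECH, 0.928), with 95% intervals of the ratio from 0.707 to 1.29 and from 0.843 to 1.23.

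Both heme oxygenases had higher means in MUT, and neither passed the test with all 6 libraries. HMOX1 (chromosome 22, 35381096 to 35394207) was at 3.50, 3.07 and 3.38 CPM in WT and at 4.78, 3.81 and 5.21 CPM in MUT. The groups did not overlap, and MUT replicate 2 was the MUT library closest to WT. For HMOX1 the 95% interval of the ratio of MUT to WT, not adjusted over genes, ran from 1.11 to 1.73. Its log2 fold change was 0.47 (SE 0.14, edgeR adjusted p = 0.121). It passed in 1 of 17 alternatives, the one without MUT replicate 2 (0.61, adjusted p = 0.0454), while without both libraries high in ribosomal RNA its adjusted p was 0.0560. HMOX2 (chromosome 16, 4474736 to 4510347) was at 8.60, 10.996 and 9.19 CPM in WT and at 11.5, 12.7 and 10.994 CPM in MUT. WT replicate 2 and MUT replicate 3 were level, so the groups just overlapped. Its log2 fold change was 0.29 (SE 0.13, edgeR adjusted p = 0.265), and the lower end of the 95% interval of the ratio was 0.996. HMOX2 shares 215 of 3194 exonic bases with NMRAL1 on the other strand, and whether counting used strand is not given in the sources used here. In all, 3 of the 9 members did not overlap between groups (ALAS1, CPOX and HMOX1), beside 26.1% of all tested genes. ALAS1 was chosen for its difference between the groups, so nothing is read from that count.

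**Figure D1:**
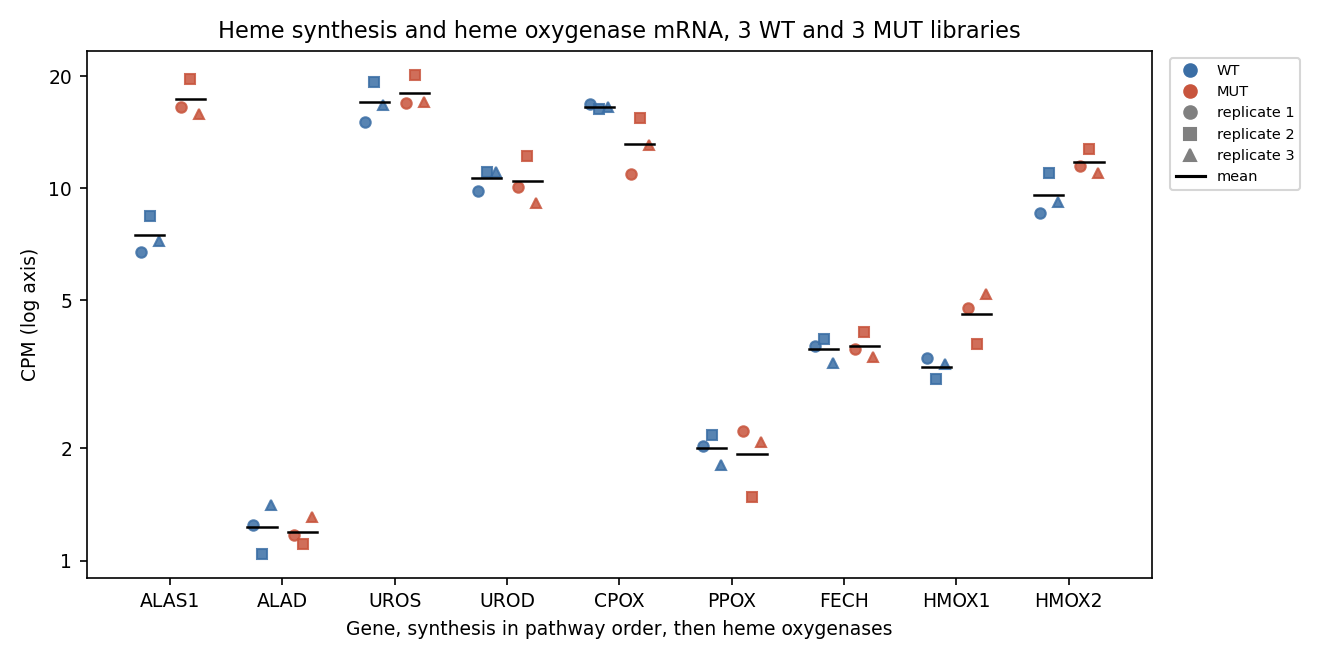
CPM of the 9 genes (log axis) in the 3 WT (blue) and 3 MUT (red) libraries; marker shapes give the replicate number and black bars the group means. ALAS1 shows the widest gap, from at most 8.44 CPM in WT to at least 15.8 CPM in MUT, while ALAD, UROS, UROD, PPOX and FECH overlap.

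Levels of different genes were compared per length, in the deposited TPM. They were deposited with 2 decimals, which makes those of ALAD and FECH coarse. In WT the order of mean TPM was UROS (3.25 ± 1.34), UROD (2.21 ± 0.752), CPOX (1.58 ± 0.386), HMOX2 (1.423 ± 0.604), ALAS1 (0.780 ± 0.313), HMOX1 (0.507 ± 0.116), PPOX (0.283 ± 0.123), FECH (0.113 ± 0.0416) and ALAD (0.0867 ± 0.0115; SD, n = 3 each). UROS stood above UROD in 6 of 6 libraries, and HMOX1 above PPOX likewise. CPOX and HMOX2 changed places between WT libraries, and FECH and ALAD were equal in 1 of them, so neither pair has a fixed order. ALAS1 was the fifth of the 9 in every WT library. In MUT it was the fourth in replicates 1 and 3 and the third in replicate 2, above CPOX in all 3.

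Ratios within a library do not depend on scaling between libraries. Those of ALAS1 restate, on that scale, the difference for which it was chosen, and are a description. ALAS1 made up 8.82%, 9.85% and 9.18% of the summed TPM of the 7 enzymes in WT, and 19.8%, 18.1% and 18.9% in MUT. Its share of these 7 enzymes' TPM had means of 9.29% ± 0.523 and 18.9% ± 0.845 (SD, n = 3). The ratio of ALAS1 to UROS was 0.249, 0.238 and 0.235 in WT and 0.528, 0.473 and 0.498 in MUT. The ratio of ALAS1 to UROD was 0.344, 0.370 and 0.329 in WT and 0.794, 0.780 and 0.831 in MUT. For both genes the library rich in ribosomal RNA, MUT replicate 2, gave ratios close to those of the other MUT libraries. Against FECH, the last enzyme, ALAS1 stood at 6.30, 7.12 and 7.12 in WT and at 15.1, 15.8 and 14.7 in MUT. Against CPOX the mean ratio was 0.492 ± 0.122 in WT and 1.38 ± 0.311 in MUT (SD, n = 3), and ALAS1 was below CPOX in every WT library and above it in every MUT library. MUT replicate 2 stood off in the ratios to ALAD and PPOX: ALAS1 to ALAD was 7.88, 11.4 and 7.12 in WT and 20.1, 35.2 and 17.2 in MUT. For PPOX these ratios were 2.52, 2.71 and 3.17 in WT and 5.03, 8.46 and 5.02 in MUT, again highest in MUT replicate 2.

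Shares sum to a fixed total, so a larger ALAS1 share lowers the others, and they are therefore given over the 6 enzymes without ALAS1. UROD made up 28.1% to 30.7% of that sum in WT and 28.1% to 31.1% in MUT, with full overlap. UROS made up 38.9% to 46.02% in WT and 46.7% to 46.9% in MUT, above WT by a narrow gap to its highest library. These shares also sum to a fixed total, in which CPOX had means of 21.5% in WT and 17.4% in MUT. In CPM, UROS overlapped between groups. CPOX made up 17.9% to 26.4% in WT and 14.4% to 20.3% in MUT, with overlap on this scale. The ratio of HMOX1 to HMOX2 was 0.441, 0.297 and 0.385 in WT and 0.445, 0.344 and 0.502 in MUT, so the balance of the heme oxygenases overlapped between groups. ALAS1 stood at 0.551 ± 0.0151 of HMOX2 in WT and at 1.04 ± 0.0914 in MUT (SD, n = 3).

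**Figure D2:**
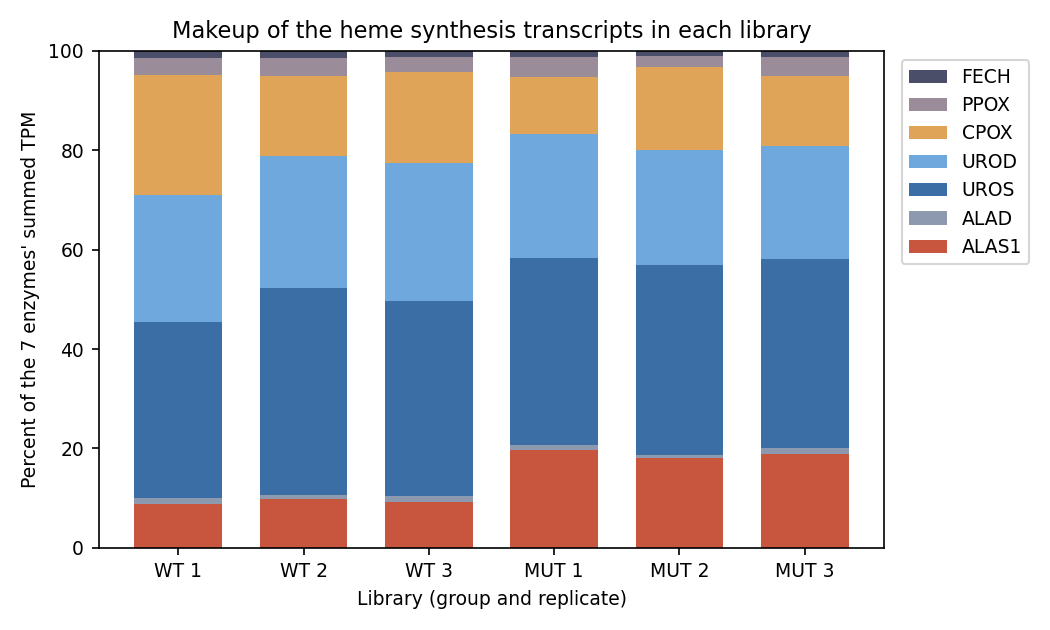
Share of each of the 7 enzymes in their summed TPM (percent, stacked to 100) in each library. The ALAS1 share, at the bottom of each bar, is 8.82% to 9.85% in the WT libraries and 18.1% to 19.8% in the MUT libraries.

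Around these 9 genes, 131 further genes of heme and iron metabolism were listed in 8 groups, and 121 were tested. Of these, 1 was higher (MAFG) and 2 were lower (CYB5B and CYBA), or 3 of 121 beside 1.91% of all tested genes. Their median log2 fold change was -0.04, against -0.01 for all tested genes, and the groups did not overlap for 38 of them, beside 26.1% of all genes. Of the 121 genes, 8.26% were higher and 23.1% lower without overlap, beside 12.8% and 13.4% of all genes, and this split was not tested. Without MUT replicate 2, 3 were higher and 3 lower. Leaving out any other 1 library gave 0 called. The medians of the single lists were small and moved with MUT replicate 2. Without it they were 0.017 for transport, 0.036 for ALAS1 control and 0.13 for the HMOX1 list. They were -0.24 for glycine and succinyl-CoA supply, -0.07 for iron, -0.077 for iron-sulfur assembly and -0.052 for heme proteins. For the other steps of heme breakdown, with 2 genes tested, the median was 0.003, against -0.04 with all libraries. The medians of transport, ALAS1 control, heme proteins and these other steps thus changed sign.

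**Figure D3:**
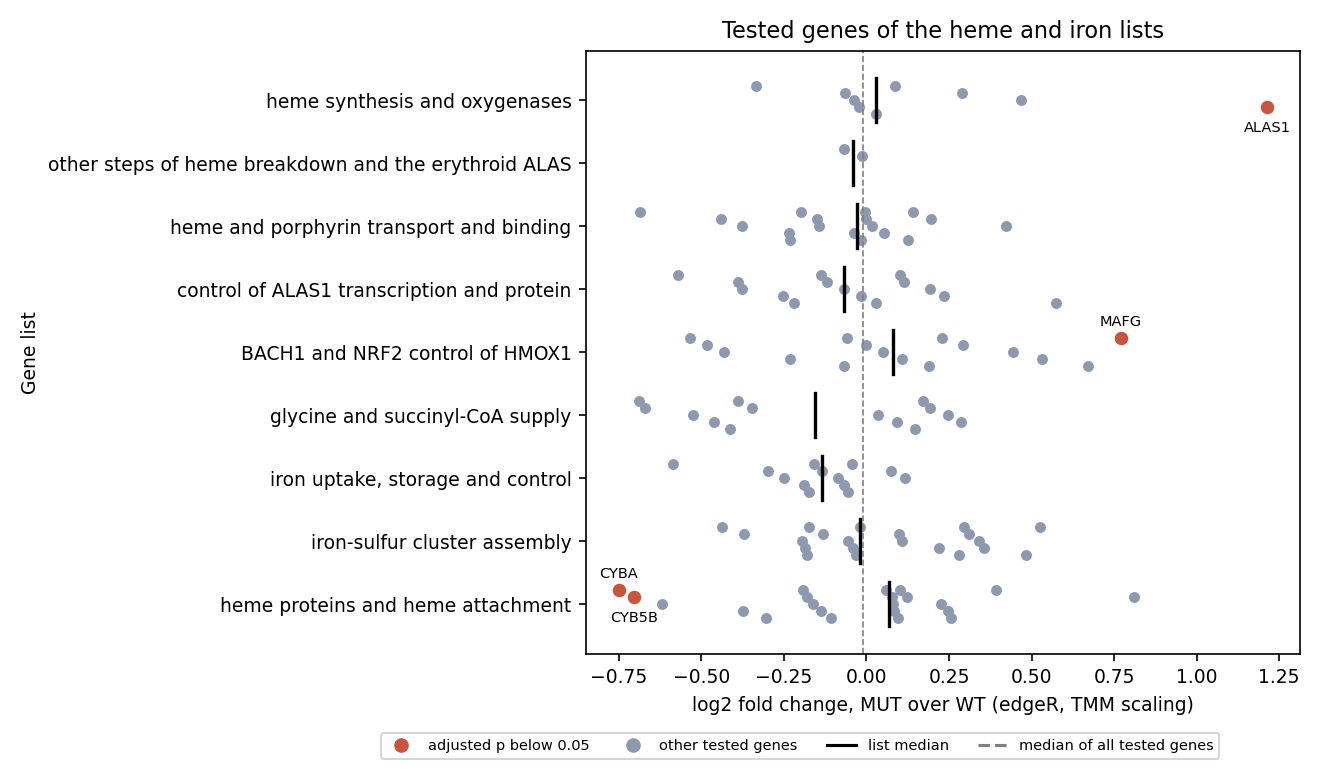
Log2 fold change (MUT over WT, edgeR with TMM scaling) of each tested gene of the 9 members and of 8 further heme and iron lists; red points passed an adjusted p of 0.05, black bars are list medians and the dashed line is the median of all tested genes. ALAS1, at 1.21, lies to the right of every other gene shown, MAFG is at 0.77, and CYBA and CYB5B are at -0.75 and -0.70.

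Among genes that control ALAS1, 0 of 15 tested were called, at a median of -0.07. The list holds NRF1 and its PGC-1 coactivators, the REV-ERB repressors and the mitochondrial proteases that degrade the ALAS1 protein. LONP1, 1 of those proteases, had the smallest p, with 3.35, 3.11 and 4.14 CPM in WT and 4.90, 5.79 and 5.01 CPM in MUT (log2 fold change 0.57, SE 0.14, edgeR adjusted p = 0.0711). LONP1 passed in 3 of 17 alternatives, DESeq2's test (0.0380) and both other filters (0.0169 and 0.0496). NRF1, whose motif stands in the ALAS1 window above and which is named for that reason after its values were seen, was at 2.74, 2.54 and 4.42 CPM in WT and at 2.29, 1.78 and 2.43 CPM in MUT. Its MUT libraries were thus the lower ones (-0.57, SE 0.23), without passing the test (edgeR adjusted p = 0.214). PPARGC1A, the best-known coactivator of ALAS1 in liver, was not tested because its counts were too low, with a mean of 0 CPM in both groups.

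The list around HMOX1 held BACH1, NRF2 (NFE2L2), its inhibitor KEAP1, the small MAF partners and common targets. Of 16 tested, 1 rose, and the median was 0.08. The groups did not overlap for 9 of them, 5 higher and 4 lower in MUT, beside 12.8% and 13.4% of all genes, and this was not tested. MAFG, a small MAF protein that pairs with BACH1 or NRF2, rose from 1.74, 1.71 and 1.97 CPM in WT to 2.69, 2.95 and 3.59 CPM in MUT (log2 fold change 0.77, SE 0.16, edgeR adjusted p = 0.0481). That call was narrow: its adjusted p was 0.0394 without MUT replicate 2 and 0.0965 to 0.167 without any other 1 library, and 0.0647 without both libraries high in ribosomal RNA, and it ran from 0.0023 to 0.167 over 16 alternatives. Without MUT replicate 2 the redox genes GCLM and SRXN1, named here after their values were seen, were also called higher. With all 6 libraries SRXN1 was at 12.9, 16.1 and 14.4 CPM in WT and at 20.8, 26.3 and 21.9 CPM in MUT (0.67, edgeR adjusted p = 0.0501). Other targets lay the opposite way, such as the quinone reductase NQO1 at -0.43 (edgeR adjusted p = 0.106), named likewise. The transcripts of BACH1 (0.11), KEAP1 (0.19) and NFE2L2 (-0.23) did not pass.

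Genes that supply glycine and succinyl-CoA, the substrates of ALAS1, gave 0 called of 14 tested, at a median of -0.15 (-0.24 without MUT replicate 2 and -0.26 without both libraries high in ribosomal RNA). The groups did not overlap for 8 of them, 7 lower and 1 higher in MUT, beside 13.4% and 12.8% of all genes. Named after their values were seen except PSAT1, the 7 were SHMT1, SHMT2, PHGDH, PSAT1, PSPH, GCSH and the glycine transporter SLC6A9. GLDC (0.29) and DLD (0.15) of the glycine cleavage system had values above 0 and overlapped. PSAT1, of serine synthesis, had the smallest p, with 8.78, 8.86 and 8.03 CPM in WT and 5.27, 6.48 and 6.07 CPM in MUT (log2 fold change -0.53, SE 0.12, edgeR adjusted p = 0.0577, or 0.0415 without MUT replicate 2), and it passed in 5 of 17 alternatives. The succinyl-CoA synthetase subunits SUCLA2 (0.17), SUCLG1 (0.09) and SUCLG2 (0.04) stayed near 0.

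Transport and iron handling showed no called gene in the main analysis. Of 18 tested carriers and binders of heme and porphyrins, 0 were called (median -0.03), and the groups did not overlap for 3, all lower in MUT. FLVCR1, a membrane transporter described for heme and choline, had the smallest p there, with 2.10, 1.84 and 2.11 CPM in WT and 1.31, 1.19 and 1.26 CPM in MUT (-0.69, SE 0.16, edgeR adjusted p = 0.0650). FLVCR1 passed in 2 of 16 alternatives, with no low-count filter (0.0385) and with a minimum of 1 CPM (0.0499). Of 13 tested genes of iron uptake, storage and control, 11 had values below 0 (median -0.14), beside 7601 of 14808 tested genes. Beside 26.1% of all tested genes, the groups did not overlap for 1 of these 13, and 0 were called. The metalloreductase STEAP2 had the smallest p among them (-0.59, SE 0.30, edgeR adjusted p = 0.327). Of 21 tested genes of iron-sulfur cluster assembly, 0 were called (median -0.02), and ISCA2 had the smallest p (-0.44, SE 0.11, edgeR adjusted p = 0.0751). The groups did not overlap for 6 of these 21, 3 higher and 3 lower in MUT. Biliverdin reductase, the step after heme oxygenase, was level: BLVRB was at 19.7, 23.0 and 23.4 CPM in WT and at 22.3, 20.2 and 20.6 CPM in MUT (-0.07, edgeR adjusted p = 0.815). These directions depend on TMM scaling: with library size as the sole correction, all genes had a median of 0.54 and the 8 lists had medians from 0.38 to 0.64.

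Of 22 tested heme proteins and heme-attaching enzymes, 2 fell, and the median was 0.07. CYB5B, the cytochrome b5 of the outer mitochondrial membrane, fell from 73.7, 74.8 and 62.4 CPM in WT to 39.9, 46.2 and 43.4 CPM in MUT (log2 fold change -0.70, SE 0.13, edgeR adjusted p = 0.0380). CYBA, the heme-binding p22phox subunit of NADPH oxidases, fell from 25.0, 23.9 and 25.6 CPM to 16.8, 11.95 and 15.5 CPM (-0.75, SE 0.14, adjusted p = 0.0382). Each remained called without MUT replicate 2 (adjusted p = 0.0414 and 0.0256) and lost the call without any other 1 library and by library size alone (-0.15 and -0.25, adjusted p = 0.812 and 0.670). Both lie on the long arm of chromosome 16, at 69424619 to 69466264 and 88643289 to 88651053 (GRCh38). From the start of CYB5B to the end of that chromosome, 94 of 111 tested genes (mean log2 CPM over 0) were on the lower side, with a median log2 fold change of -0.30 and 15 lower calls. Over all tested genes, 7601 of 14808 were below 0 and 0.925% were called lower. That background was not held to the same minimum mean, so the 2 are not like for like. In the fit limited to genes with at least 1 CPM in 3 libraries, 196 of 9922 were called lower. The region was set to begin at CYB5B, itself called lower, and it includes CYBA. GCSH and NQO1 also lie on chromosome 16, and the part of that region in these values was not tested. The respiratory heme proteins CYCS (0.10), CYC1 (-0.37) and SDHC (0.26) did not pass, nor did EIF2AK1, the heme-regulated kinase of translation (0.08).

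Genes with the pattern most like that of ALAS1 were found by Pearson correlation of log2 CPM over the 6 libraries, among 4223 genes, the protein-coding ones whose mean log2 CPM was 2 or more and the other 8 members. They were TMEM11, a mitochondrial membrane protein (r = 0.997), the Golgi SNARE GOSR2 (0.997), RANBP3 (0.995), the vesicle transport GTPase RAB8A (0.994), the fatty acid elongase ELOVL1 (0.993) and UQCC1, an assembly factor of respiratory complex III (0.992). These are descriptions over 6 points that share the group difference, library depth and composition. Their own log2 fold changes ran from 0.39 (ELOVL1) to 0.79 (RAB8A), all below that of ALAS1. UQCC1 starts at 35302578 on chromosome 20, beside EIF6. TMEM11, the most alike, was at 7.54, 8.70 and 7.91 CPM in WT and at 12.5, 13.7 and 11.6 CPM in MUT, with replicate 2 the highest of each group, as for ALAS1.

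Among the members, HMOX2 followed ALAS1 most closely (r = 0.886), ahead of HMOX1 (0.716) and UROS (0.514), and CPOX had the lowest r (-0.686). After the group means were removed, UROS (0.981), HMOX2 (0.964), UROD (0.854) and FECH (0.754) varied along with ALAS1 from library to library, as did CPOX less closely (0.456), while HMOX1 (-0.922), ALAD (-0.758) and PPOX (-0.449) ran against it. These residual patterns rest on 6 libraries with 2 fitted means, and MUT replicate 2, the library rich in ribosomal RNA, was the highest MUT library for ALAS1, UROS, UROD, CPOX, FECH and HMOX2 and the lowest for ALAD, PPOX and HMOX1.

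The ALAS1 difference was recomputed under 19 alternatives in scaling, filter, test, unit and libraries. Its log2 fold change lay between 1.04 and 1.77, and its distance above the median of all genes between 0.68, on the log2(TPM + 1) scale that compresses low values, and 1.33. HMOX1 lay 0.38 to 0.65 and HMOX2 0.16 to 0.42 above the median of all genes in every fit that held them. CPOX lay below that median in all 20 fits, by 0.13 to 0.45 on the log2 scale. ALAD, UROD, PPOX, FECH and UROS fell on both sides of it.

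**Figure D4:**
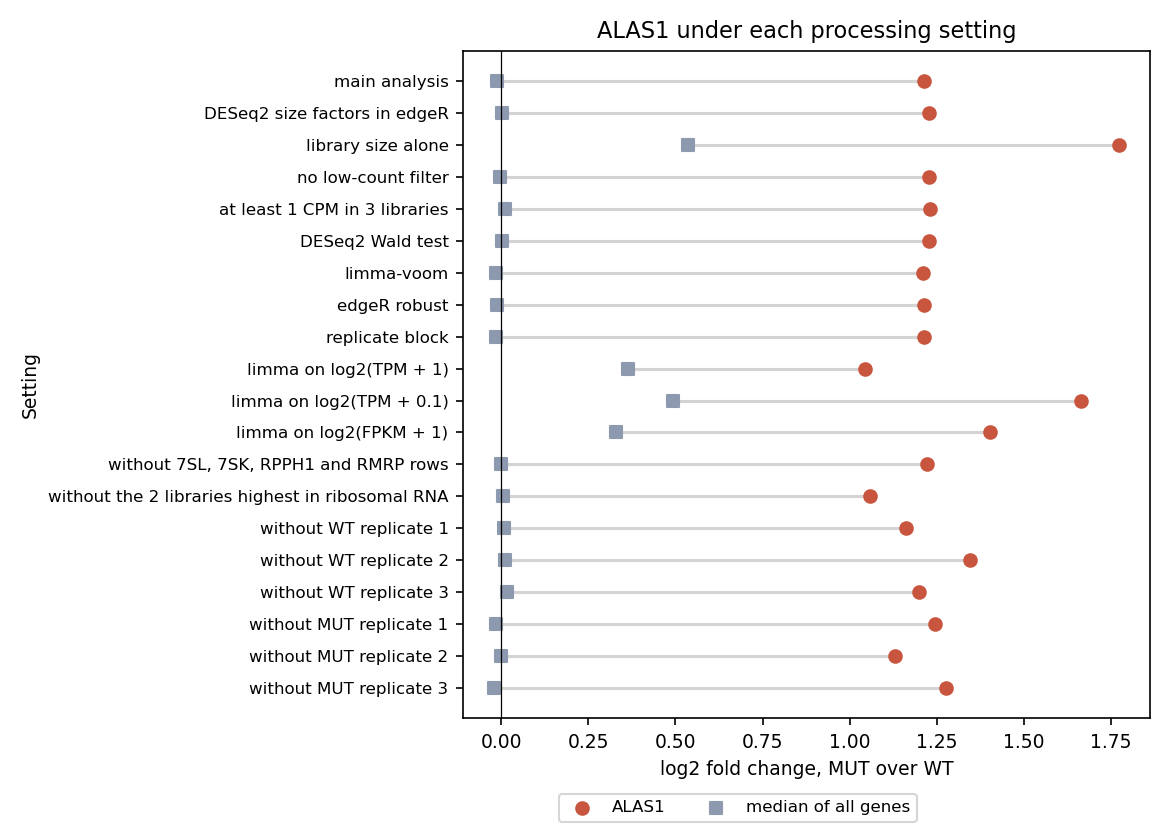
Log2 fold change of ALAS1 (circles) and the median over all genes (squares) in the main analysis and under 19 alternatives. ALAS1 runs from 1.04 to 1.77, and at its highest, with library size as the sole correction, the squares stand at 0.54.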

How the data were processed

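RNA of 3 WT and 3 MUT HCT116 libraries was analysed, grouped by sample title. The authors deposited 3 tables, of expected counts, FPKM and TPM. The deposited expected counts were whole numbers (0 values were not), so rounding changed none; FPKM and TPM are the authors' values, scaled for depth and transcript length. Tools listed, without roles, in the submitters' processing notes are RSEM 1.2.28, STAR 2.5.2b, DESeq2 1.42.0 and FastQC 0.12.1, with build hg38 (GRCh38); the annotation and any use of strand are not given in the sources used here. Per the labels' protocols, RNA came from a phenol-chloroform extraction, and the library kit was NEBNext Ultra II.

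The count test was that of edgeR 4.0.16 (R 4.3.3): filterByExpr (minimum count 10, total 15), TMM scaling, and the quasi-likelihood F-test of MUT against WT on the whole table, with Benjamini-Hochberg adjustment over all 14808 genes. The standard error is the log2 fold change divided by the square root of F, and 95% intervals use the test's degrees of freedom. The procedure was tested on simulated counts. The pseudocounts of the alternatives were 1 and 0.1 in log2(value + pseudocount), tested with limma 3.58.1, with a minimum of 1 in 3 libraries; there a fold change understates that of low genes. Symbols were matched to RefSeq (GRCh38.p14; 57842 of 59251), and exon overlaps come from GENCODE 29. A planned comparison of protein sequences was not run.

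The members and gene lists were chosen with earlier results of these data known. The rule named EIF6, the 9 members, in each of the 8 other lists up to 4 called genes or else the gene with the smallest p, and the 6 protein-coding genes most correlated with ALAS1. Genes outside this rule were chosen after their values were seen. Replicates of a group differed by far more than counting error, so none was merged.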

Additional observations from a re-analysis of the deposited data

How the results depend on the processing

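Of 19 alternatives, DESeq2's size factors, limma-voom, the replicate block, removal of the abundant noncoding RNAs and omission of both libraries high in ribosomal RNA kept the number of genes called within 1.5 times the 283 of the main analysis. Other counts were 108 by library size alone, 1195 with no low-count filter, 462 with at least 1 CPM in 3 libraries, 760 in DESeq2's Wald test, 552 in the robust edgeR fit, and in limma 21 on log2(TPM + 1), 10 on log2(TPM + 0.1) and 13 on log2(FPKM + 1), where fewer genes were tested. Without 1 library it ran from 27 to 442, the latter without MUT replicate 2. Higher genes were 51.6% of calls in the main analysis and 87.96% by library size alone, and 71.4% on the log2(TPM + 1) scale.

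The number of members called was 1, namely ALAS1, in the main analysis, and 0 on the log2(TPM + 1), log2(TPM + 0.1) and log2(FPKM + 1) scales. Without 1 library it ran from 0, without WT replicate 1, to 2, without MUT replicate 2, where HMOX1 joined. The 3 other heme and iron genes called became 0 by library size alone and on the log2(TPM + 1), log2(TPM + 0.1) and log2(FPKM + 1) scales, 11 with no filter, 12 with at least 1 CPM, 12 in DESeq2's test and 10 in the robust fit. Without 1 library they ran from 0 to 6.

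The ALAS1 log2 fold change of 1.21 was 1.77 by library size alone and 1.04, 1.66 and 1.40 on the log2(TPM + 1), log2(TPM + 0.1) and log2(FPKM + 1) scales, where the median of all genes was 0.54, 0.36, 0.49 and 0.33. Without 1 library it ran from 1.13 to 1.35.

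Against those shifted medians, signs turned by library size alone for EIF6 (0.089), ALAD (0.52), UROD (0.56), CPOX (0.27), PPOX (0.41), BLVRB (0.46), PSAT1 (0.039) and ISCA2 (0.10). On the log2(TPM + 1) scale they turned for EIF6 (0.18), UROD (0.44), CPOX (0.23) and BLVRB (0.49), on log2(TPM + 0.1) for EIF6 (0.19), UROD (0.57), CPOX (0.29) and BLVRB (0.55), and on log2(FPKM + 1) for EIF6 (0.094), UROD (0.45), CPOX (0.19), PPOX (0.31), BLVRB (0.44) and ISCA2 (0.067). Without both libraries high in ribosomal RNA, ALAD (0.052), UROS (-0.065), PPOX (0.12) and FECH (-0.012) changed sign. Leaving out 1 library gave -0.12 to 0.072 for ALAD, -0.13 to 0.066 for UROD, -0.19 to 0.12 for PPOX and -0.021 to 0.11 for FECH, all close to 0. EIF6 passed in DESeq2's test alone (adjusted p = 0.0492). ALAD, PPOX, FECH and HMOX1 could not be fitted on the TPM scales, nor ALAD and FECH on that of FPKM, where they were under the minimum.

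Replicate numbers are shared between groups, and the labels do not say whether they pair the samples. Deviations of same-numbered libraries correlated at -0.29, -0.04 and 0.22 across genes, and those of differently numbered libraries at -0.32 to 0.37. With 3 libraries a group these values cannot decide whether the numbers mark a pairing. With the replicate number as a block 296 genes were called, and ALAS1 was at 1.21. The cause of these changes was not tested. The small counts of ALAD and PPOX, and 3 libraries a group, limit what could be seen in them.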
